A study of Homo sapiens with 6 samples.

Results

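SVA elements are composite retrotransposons found in great apes and humans. SVA_D is the subfamily examined here. The genome annotation of the deposited tables holds 1546 SVA_D copies. On chromosomes 1 to 22 and X there are 1448. Described here are the 185 of these copies that overlap the body of at least 1 protein-coding gene on their own strand, so that transcription of the gene reads the copy in its sense direction. The rule that chose them uses position and strand alone and no measured value, but it was set with earlier results of these data known. Another 495 copies lie only in genes of the opposite strand and 768 lie outside protein-coding gene bodies.

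RNA was measured in HEK 293T, a human embryonic kidney cell line. All 6 libraries came from cells transfected with dCas9-VP64 and rtTA. SunTag, a peptide array for recruiting activators, stands in the sample titles too. The 3 libraries of the guide group (genotype label CRISPRa) also received an sgRNA aimed at SVA_D (SVAD sgRNA), and the 3 libraries of the no-guide group (genotype label WT) received none, so the control cells carry the activator too. Nothing in the labels says whether the libraries came from separate cultures, and the p-values therefore rest on variation among libraries that could be technical.

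CRISPR activation uses a Cas9 without nuclease activity to carry a transcriptional activator to sites that match the guide. A copy inside a gene and in its orientation can give reads in either of 2 ways that short unstranded reads do not separate, from a transcript that starts in or near the copy and from the host gene's own RNA that passes through it. SVA copies in this orientation are also known to supply splice sites and polyadenylation signals to host genes, a process called exonization.

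Of the 680 copies in protein-coding genes, 27.2% were in host orientation (exact 95% interval 23.9% to 30.7%). The interval takes copies as independent, which pieces of 1 insertion are not. The 185 copies lie in 174 host genes. SCFD2 holds 3 of them, 15 genes hold 2 and 158 hold 1. Of the 185, 6 were on the same strand as 2 overlapping genes, 6 also overlapped a gene of the other strand and 6 crossed the end of a gene. Copies in host orientation were shorter than the others, with a median of 997 bases against 1541 for opposite copies and 1464 for copies outside genes. Only 49.7% of them reached 1000 bases, against 73.1% of opposite copies and 69.3% of copies outside genes. Of the 185, 22 lie within 100 bases of another SVA_D interval on the same strand, so some may be pieces of 1 insertion, as SVA_D_dup434 and SVA_D_dup435 in SLC38A9.

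Exon annotation (GENCODE release 29, GRCh38) placed 16 of the 185 copies, in 15 genes, on an exon of the host strand, and 169 in introns only. An annotated exon of any gene on the copy's own strand was overlapped by 8.65% of the host-orientation copies and 1.82% of the opposite copies. The class rule leaves opposite copies no listed protein-coding gene on their own strand, so these shares do not compare like with like. A splice-acceptor end, where an exon begins after an intron, lies inside the copy in 7 of the 16 (LEPR, SLC38A9, C2CD3, ESCO1, AC005726.1, ZNF83 and PABIR3). A transcript start lies inside the copy in 5 (HYAL1, RNASE10, TBPL2, MRGPRX3 and PABIR3) and a transcript end in 9. The copies in BBS5 and GOSR1 lie wholly inside a single exon of their gene, and 6 copies hold annotated coding sequence.

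Exons in 2 genes on different chromosomes begin in nearly the same stretch of their copies, and both are shown for that reason. The first 30 bases of the exons, read from the GENCODE transcripts on GRCh38, in ZNF83 (minus strand, chr19:52594275-52594304, SVA_D_dup1351) and PABIR3 (plus strand, chrX:134838727-134838756, SVA_D_dup807) are given with their shared run of 19 bases in capitals.
ZNF83: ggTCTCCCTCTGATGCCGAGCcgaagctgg
PABIR3: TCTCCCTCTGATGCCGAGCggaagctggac
The PABIR3 exon begins with the run and the ZNF83 exon begins 2 bases before it. They begin 66 and 49 bases into their copies.

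Depth limits what single copies can show. Gene counts ran from 16557854 to 22651168 per library, while the 185 copies together had 793 to 1118 counts per library. Levels below are counts per 1e+06 gene counts (CPM), and 3 counts, used as a floor, correspond to 0.132 to 0.181 CPM. Copy counts include pairs that align to several places, counted at each, so a pair from 1 copy can also count at similar copies. Replicate 3 of both groups carries another naming scheme in the file headers than replicates 1 and 2, and these 2 libraries stood apart from the other 4 on the leading principal component of gene counts. The 2 sets of libraries are called batches below. The 5 markers chosen for HEK 293T summed to 1342 to 1977 CPM in the guide libraries and 1404 to 2248 CPM in the others, and of 7 markers of other cell types 6 averaged under 1 CPM (COL1A1 reached 18.0 CPM). In bulk RNA, fewer cells that transcribe a copy and less RNA per cell cannot be told apart.

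The RNA of host-orientation copies came from few of them. Over the 6 libraries, 53 of the 185 copies had 0 counts, 77 had 1 to 9, 46 had 10 to 99 and 9 had 100 or more. A count of 0 does not show that a copy is silent. The copies made up 11.97% of all SVA_D copies and 28.2% of SVA_D copy counts. The 16 exon copies held 66.7% of the counts of the 185, and the 3 highest, in GOSR1, BBS5 and MRNIP, held 45.8%. Among copies of at least 1000 bases, 52.2% of those in host orientation had 10 or more counts, against 28.5% of opposite copies and 23.9% of copies outside genes. These shares were not tested.

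The copy in GOSR1, a gene for a SNARE protein of the Golgi, had the most counts, 1319. It is SVA_D_dup1229, chr17:30522805-30524227 on the plus strand, inside the last exon of the gene. Its level was 12.7, 10.6 and 9.47 CPM in guide replicates 1, 2 and 3 and 9.98, 10.2 and 13.2 CPM without the guide. The groups overlapped, with a log2 fold change of -0.046 ± 0.16 (SE) in edgeR's quasi-likelihood test (adjusted p = 0.976). Per 1000 counts of the host gene the copy had 264 ± 12.1 counts in guide libraries and 263 ± 37.2 in no-guide libraries (SD, n = 3). The 2 ratios differed by less than the spread between libraries. Copy counts include multi-mapping pairs and gene counts leave them out, so these ratios are not the copy's part of the gene's RNA.

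The copy in BBS5, which encodes a subunit of the ciliary BBSome complex, had 734 counts (SVA_D_dup217, chr2:169505004-169506468, plus strand). It stood at 5.0002, 5.80 and 8.31 CPM with the guide and 5.25, 4.56 and 7.68 CPM in the no-guide libraries, and replicate 3 was the highest library of each group. BBS5 itself is listed at 0 in all 6 libraries of the gene table. A second annotated gene, AC093899.2, covers the same place, and the authors' gene counts leave out pairs that overlap 2 genes. The host level of this copy could therefore not be read. The copy in MRNIP, a gene for a partner of the MRN DNA repair complex, is SVA_D_dup494 (chr5:179834413-179835696, minus strand) and had 588 counts. It extends past the end of MRNIP and also overlaps SQSTM1, a gene on the other strand, and the counts do not tell the strands apart. It stood at 5.0002, 6.04 and 3.67 CPM with the guide and 6.36, 6.41 and 2.48 CPM in the no-guide libraries, with replicate 3 the lowest library of each group.

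The copies in C2CD3, ESCO1 and AC005726.1 hold exon starts, and the one in PABIR3 an exon start and a transcript start. C2CD3 is needed for building centrioles and cilia, and ESCO1 acetylates cohesin. The C2CD3 copy stood at 2.12, 2.36 and 2.08 CPM with the guide and 2.60, 2.77 and 2.76 CPM in the no-guide libraries, so every guide library lay below every other library. The log2 fold change was -0.35 ± 0.32 (SE), and edgeR did not call it (adjusted p = 0.866). The ESCO1 copy stood at 0.914, 1.21 and 2.22 CPM with the guide and 1.46, 1.27 and 1.83 CPM in the no-guide libraries, with overlap. Of the remaining copies in this group, AC005726.1 had 2.11 ± 1.23 CPM against 2.63 ± 0.850 CPM and PABIR3 1.85 ± 0.617 CPM against 2.04 ± 0.766 CPM (guide against no guide, SD, n = 3). None of these 4 passed the test, and all 4 log2 fold changes were below 0, turning above it for ESCO1 without guide replicate 1 (0.10) and for PABIR3 without no-guide replicate 3 (0.069).

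The most abundant copy outside exons was SVA_D_dup1057 in AL139353.1 with 124 counts, at 0.989 ± 0.454 CPM against 1.05 ± 0.361 CPM (SD, n = 3). SVA_D_dup964 in AC073610.3, which also overlaps CCDC65 on the other strand, was at 0.668 ± 0.415 CPM against 1.01 ± 0.0770 CPM, with a log2 fold change of -0.65 ± 0.48 (SE). Neither passed (edgeR adjusted p = 0.976 and 0.866).

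The first comparison asked whether the guide raised the summed RNA of host-orientation copies. The sum was 43.4, 47.9 and 54.0 CPM in guide replicates 1, 2 and 3 and 46.1, 47.1 and 51.5 CPM without the guide. The groups overlapped fully, with means of 48.4 ± 5.34 and 48.2 ± 2.88 CPM (SD, n = 3) and a two-sided exact permutation p of 1. The 16 exon copies were at 31.9 ± 2.76 CPM against 32.4 ± 2.86 CPM (exact permutation p = 0.6). The 169 intron-only copies were at 16.5 ± 2.96 CPM against 15.8 ± 0.737 CPM (exact permutation p = 0.8). The log2 ratio of the whole sum was -0.030 in replicates 1 and 2 and 0.069 in replicate 3.

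Copies in genes of the opposite strand did not show this overlap. They stood at 50.5, 51.9 and 54.9 CPM with the guide and 40.2, 44.3 and 45.2 CPM in the no-guide libraries, 1.21 times as high, and all guide libraries lay above all others (exact permutation p = 0.1, the smallest that 3 against 3 allows). Copies outside genes stood at 87.5 ± 20.7 CPM against 63.3 ± 7.51 CPM (SD, n = 3). Their groups overlapped (exact permutation p = 0.2) through guide replicate 1, at 71.8 CPM, and no-guide replicate 3, at 72.0 CPM. Between libraries of the same replicate number the guide library was higher in 3 of 3, by 13.1, 20.5 and 39.1 CPM. Adjusted over the 5 sums compared, the p-values were 1 for the 3 host-orientation sums and 0.5 for the other 2.

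The difference between the classes was tested within libraries, where gene-based scaling cancels. The log2 ratio of host-orientation to opposite copies was -0.22, -0.12 and -0.024 in guide replicates 1, 2 and 3 and 0.20, 0.086 and 0.19 without the guide. Host-orientation copies thus outnumbered opposite copies in counts in each no-guide library and in no guide library. The difference was -0.28, with -0.31 in replicates 1 and 2 and -0.21 in replicate 3. Against copies outside genes, the ratio fell from -0.39 ± 0.083 to -0.83 ± 0.178 (SD, n = 3), a difference of -0.45, with -0.39 in replicates 1 and 2 and -0.56 in replicate 3. Each comparison gave an exact two-sided permutation p of 0.1, the smallest the design allows, so neither can pass 0.05. For intron-only copies the differences were -0.24 against opposite copies and -0.41 against copies outside genes, again with an exact permutation p of 0.1. The Benjamini-Hochberg value over these 4 comparisons was 0.1. Within replicate 3 the intron-only difference against opposite copies was only -0.025, against -0.34 in replicates 1 and 2. Without the 5 host-orientation copies with the most counts, the difference against opposite copies was -0.23 and the groups overlapped (exact permutation p = 0.3). Without the copies that also overlap an opposite gene, it was -0.25 (exact permutation p = 0.2).

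As a share of all SVA_D copy counts, host-orientation copies held 26.2%, 26.7% and 24.6% in guide replicates 1, 2 and 3. They held 31.8%, 31.3% and 30.5% in the libraries without the guide. Their counts per library were 902, 793 and 1118 against 1044, 815 and 1100. The share was lower in all guide libraries than in all others, while the CPM sum of the host-orientation copies overlapped.

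Single copies were tested with edgeR over all SVA_D copies. Of 63 copies with enough counts, 11 were called higher with the guide (17.5% of those tested) and 0 lower (0% of those tested). Only 19 of the 185 host-orientation copies could be tested, 8 on exons and 11 in introns, and 166 had too few counts. One of the 19 was called higher and 0 lower, with 1 in each direction at an unadjusted p under 0.05, and limma-voom and DESeq2 also called 1 higher and 0 lower. Copies of the other classes gave 3 calls among 14 opposite copies and 7 among 30 copies outside genes. A copy with enough counts in 1 group alone could enter the test, so these numbers of calls depend partly on the count filter. They are no independent support for a rise. The median log2 fold change was -0.12 over the 19 copies and 0.028 over all 63, and 12 of the 19 lay below 0. The 18 that were not called ran from -1.27 to 0.31. These medians are descriptions and the classes were not compared by a test of single copies.

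The called copy, SVA_D_dup1216, lies in an intron of TOM1L2, a gene for a membrane-trafficking adaptor related to TOM1. It spans chr17:17911652-17913237 on the minus strand, is 1586 bases long and begins 59185 bases downstream of the gene's start. It had 23, 14 and 22 counts in guide replicates 1, 2 and 3 and 3, 1 and 5 counts without the guide, or 1.005 ± 0.140 CPM against 0.141 ± 0.0885 CPM (SD, n = 3). Every guide library lay far above every other library. Pairs that align to several places count here too, so part of these counts could come from similar copies, which was not tested. The copy passed the count filter only through the guide libraries, where it is high. A fit without that filter also called it (edgeR adjusted p = 0.00541). The log2 fold change was 2.71 ± 0.52 (SE, edgeR adjusted p = 0.00329), and the copy was called in all 14 alternative fits, with log2 fold changes from 2.43 to 3.16 and adjusted p-values from 1.29e-05 to 0.0216. The no-guide mean lies near the floor of 3 counts, so the size of the fold is known only roughly, and the summed counts differed 6.93-fold (exact 95% interval 3.41 to 15.9, counting error only).

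TOM1L2 itself did not pass. The gene was at 38.4, 34.4 and 31.7 CPM with the guide and 29.05, 30.6 and 34.2 CPM in the no-guide libraries, with overlap, and its log2 fold change was 0.12 ± 0.14 (SE, edgeR adjusted p = 0.99999). Per 1000 TOM1L2 counts the copy had 28.97 ± 4.44 counts in guide libraries and 4.43 ± 2.48 in no-guide libraries (SD, n = 3). A pair aligned once inside the copy is counted for the gene as well, whose counts include introns. Multi-mapping pairs count for the copy alone, so these ratios are not the copy's part of the gene's RNA.

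On the lower side, the smallest p belonged to SVA_D_dup663 (chr8:65662055-65663547, plus strand) in an intron of MTFR1, a gene for a mitochondrial fission regulator. It had 7, 4 and 6 counts with the guide and 13, 10 and 20 without it, so the groups did not overlap. The log2 fold change was -1.27 ± 0.46 (SE), which edgeR did not call (adjusted p = 0.0924). In the alternative fits the adjusted p ran from 0.0507 with the batch as a covariate to 0.723 without the count filter. MTFR1 was at 66.7 ± 7.30 CPM against 69.2 ± 10.4 CPM (SD, n = 3).

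VWA8 and SLC38A9 hold the copies that followed TOM1L2 by p on the higher side. VWA8 encodes a mitochondrial protein with an ATPase domain, and SLC38A9 a lysosomal amino acid sensor upstream of mTORC1. The VWA8 copy had 28, 18 and 8 counts with the guide against 8, 22 and 14, and the SLC38A9 copy SVA_D_dup435 had 10, 8 and 19 against 15, 6 and 10. Both overlapped between groups (edgeR adjusted p = 0.976 for each). Among the 55 host-orientation copies with 10 or more counts, 3 had every guide library above every other (5.45%) and 2 had every one below (3.64%). Over all 311 such SVA_D copies the shares were 14.5% above and 3.22% below. The 3 were the copies in TOM1L2, TRIM4 and RNASE10 and the 2 those in C2CD3 and MTFR1, of which TRIM4 and RNASE10 are named after their values were seen. The TRIM4 copy had 4, 5 and 4 counts with the guide and 3, 2 and 4 without it. The no-guide counts summed to 9 in TOM1L2, 9 in TRIM4 and 0 in RNASE10. These copies reached 10 counts only with their guide counts, so their lack of overlap is no independent support for a rise. The shares over all 311 copies rest on the same filter.

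An annotated transcript start lies inside 5 of the copies. The one in HYAL1, the gene for a lysosomal hyaluronidase, spans the start of the gene at chr3:50310595-50312964 (SVA_D_dup282, minus strand). It had 14, 6 and 27 counts with the guide and 5, 4 and 9 without it, 0.780 ± 0.480 CPM against 0.291 ± 0.113 CPM (SD, n = 3). Guide replicate 2 lay below no-guide replicate 3, so the groups overlapped, and the copy was below the count filter of the test (edgeR adjusted p = 0.708 in a fit without that filter). HYAL1 as a gene had 1.14 ± 0.692 CPM against 0.968 ± 0.583 CPM (log2 fold change 0.20 ± 0.53 (SE), edgeR adjusted p = 0.99999).

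The copy at the start of RNASE10, a member of the RNase A family, had 2, 3 and 8 counts with the guide and 0 in each of the other libraries (SVA_D_dup1054, chr14:20505335-20506434, plus strand). Against a floor of 3 counts over the no-guide group, its 13 guide counts stood 4.58-fold higher in CPM. This is not a lower limit, since it takes the guide counts as exact and leaves out variation between libraries. A fit without the count filter did not call it (edgeR adjusted p = 0.122). The RNASE10 gene had 0, 3 and 2 counts with the guide and 0 in all libraries without it. The remaining start-holding copies gave no such difference, with 109 counts against 127 in PABIR3, 4 against 5 in TBPL2 and 2 against 2 in MRGPRX3.

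The naming rule also took 3 copies below the count filter. SVA_D_dup996 in IFT81, an intraflagellar transport gene, had 8, 13 and 5 counts with the guide and 8, 3 and 3 without it. SVA_D_dup2 in ACOT7, an acyl-CoA thioesterase gene, had 7, 0 and 8 against 0, 1 and 0, so 1 guide library had none. The copy in LEPR, the leptin receptor gene (SVA_D_dup58, chr1:65630189-65630430, plus strand), had 0, 1 and 3 counts with the guide and 14, 6 and 1 without it. Its groups overlapped through replicate 3, and 14 of its 21 no-guide counts came from replicate 1. A fit without the count filter called none of the 3 (edgeR adjusted p = 0.723 for IFT81, 0.366 for ACOT7 and 0.491 for LEPR). In replicate 3 alone the LEPR copy was higher with the guide, on a log2 ratio of 1.63 against -2.30 over all libraries.

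The next comparison was of the host genes. Their median length was 122 kb against 27.2 kb for all 19986 genes, and their median gene-body count was 18.2 CPM against 6.90 CPM. Per kb of gene the order was the other way, with a median of 0.104 CPM per kb in host genes and 0.144 CPM per kb over all genes. Of the 174 host genes, 135 passed the count filter. edgeR called 0 higher and 0 lower among them and 0 and 0 among all 13007 tested genes (0% of those tested in each direction). At an unadjusted p under 0.05 there were 0 host genes in either direction, against 19 higher and 4 lower genes in all, and DESeq2 and limma-voom called 0 host genes too. With the batch as a covariate, 2 of the 135 host genes were higher and 0 lower at that unadjusted threshold. They were ALOX5 (log2 fold change 0.81, edgeR unadjusted p = 0.026) and GFRA2 (0.91, edgeR unadjusted p = 0.032). ALOX5 is named after its values were seen. Over all 13007 tested genes 347 were higher and 140 lower in that fit, and none passed after adjustment. The median log2 fold change of host genes was -0.036 against 0.0025 for all tested genes. Below 0 lay 82 of the 135, or 60.7%, against 49.1% of all tested genes. Without TMM scaling 68 lay below 0, or 50.4% against 34.9%, with medians of -0.00042 and 0.042. With replicates 1 and 2 alone the host median was 0.0083, so its sign rests on replicate 3. In that fit 44.7% of host genes lay below 0, against 48.2% of all.

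In the fit without the batch, the host genes with the smallest p on the higher side were GFRA2, CCDC38, LRP4, TOM1L2, ANKRD11 and ZFYVE9. GFRA2, a receptor for the neurotrophic factor neurturin, was at 0.901 ± 0.350 CPM against 0.468 ± 0.244 CPM, and CCDC38 at 0.764 ± 0.344 CPM against 0.423 ± 0.2497 CPM (SD, n = 3). The copy in GFRA2 had 1 count in all, and the pair of copies in CCDC38 had 5, too few to compare between groups. LRP4, a receptor at the neuromuscular junction, had a log2 fold change of 0.20 ± 0.17, the chromatin regulator ANKRD11 0.15 ± 0.17 and ZFYVE9, an adaptor of TGF-beta signalling, 0.19 ± 0.23 (SE).

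On the lower side they were FAM120C, FILIP1, LRP1B, MAPKAP1, FUT8 and CAPZA1. LRP1B, of the LDL receptor family, was at 9.66, 9.60 and 8.50 CPM with the guide and 10.8, 10.7 and 10.4 CPM in the no-guide libraries, without overlap, and its log2 fold change was -0.24 ± 0.19 (SE). Its copy is 69 bases long and had 0 counts. MAPKAP1, a subunit of mTORC2, had a log2 fold change of -0.15 ± 0.12, the core fucosyltransferase gene FUT8 -0.19 ± 0.16 and the actin-capping gene CAPZA1 -0.13 ± 0.11 (SE). FAM120C had -0.18 ± 0.13 and FILIP1 -0.51 ± 0.39 (SE). All 12 had an edgeR adjusted p of 0.99999. Without overlap were 3 host genes above (CLEC16A, MARK2 and TBC1D14, 2.22%) and 1 below (0.741%), against 2.72% and 0.592% of all tested genes. SCFD2, the gene with 3 copies, was at 19.7 ± 1.78 CPM against 19.6 ± 2.27 CPM, and its copies had 9, 6 and 0 counts with the guide and 3, 4 and 0 without it.

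Among the factors known to act in silencing SVA elements, all 12 listed genes were tested and 0 were called in either direction. Their log2 fold changes ran from -0.14 (ATF7IP) to 0.065 (UHRF1), with a median of -0.011 beside 0.0025 for all tested genes. ZNF91, which represses SVA elements by binding them, had 6.81 ± 1.26 CPM against 7.35 ± 2.80 CPM, and TRIM28, its corepressor, at 505 ± 55.5 CPM against 468 ± 73.4 CPM (SD, n = 3).

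Copies with counts were more frequent in genes with more RNA. The 169 intron-only copies were divided into tertiles by the level of the host gene per kb of gene body, a scale that allows genes of different length to be compared. At least 1 count was seen for 29 of 56 copies in the lowest tertile (51.8%), 39 of 56 in the middle tertile (69.6%) and 48 of 57 in the highest tertile (84.2%). The 3 tertiles held 7.28% ± 2.49, 40.3% ± 2.14 and 52.5% ± 2.92 of the intron-only counts (SD, n = 6 libraries). Across copies, Spearman's rho between the copy's and the host's level per kb was 0.47 (n = 169), as a description, since copies share libraries and multi-mapping pairs. Opposite copies showed an increase of the same kind, with 65.2%, 81.6% and 87.4% of copies with counts and a rho of 0.40. The median copy length was 718, 1221 and 908 bases in the 3 tertiles, and its part in these shares was not tested. The lowest tertile includes a copy in FAM220A and SAGSIN1, overlapping genes both at 0 in all 6 libraries. Gene counts leave out pairs that overlap 2 genes, so the level of such hosts could not be read.

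Within each tertile the 2 groups were close. The lowest tertile had 1.18 ± 0.646 CPM in guide and 1.16 ± 0.240 CPM in the no-guide libraries, the middle tertile at 6.54 ± 1.39 CPM against 6.50 ± 0.740 CPM, and the highest tertile at 8.77 ± 1.54 CPM against 8.17 ± 0.285 CPM (SD, n = 3). Each difference was below the SD of the guide libraries. Per kb of copy, intron-only copies in host orientation had 0.0982 ± 0.00457 CPM without the guide, against 0.0662 ± 0.00413 CPM for opposite copies and 0.0659 ± 0.00782 CPM for copies outside genes. With the guide these were 0.102 ± 0.0184, 0.0802 ± 0.00346 and 0.0911 ± 0.0216 CPM per kb. Exon copies were at 1.41 ± 0.125 CPM per kb without the guide and 1.39 ± 0.121 with it.

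Copies and hosts were set side by side for the 18 tested copies whose host gene was tested as well. Host log2 fold changes lay between -0.23 (AC005726.1) and 0.12 (TOM1L2), a narrower range than those of their copies. Each host value also had a smaller SE than that of its copy. TOM1L2 was at the top of both ranges, but its host value was 0.12 ± 0.14 (SE). The hosts SLC38A9 (0.11 ± 0.33) and MRNIP (0.11 ± 0.15) stood within that SE of it. The comparison of the 2 values carries the limit that part of the pairs count in both tables.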

How the data were processed

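The deposited files hold raw counts, made by the authors with STAR 2.7.0e and featureCounts 2.0.0 after FastQC 0.11.8 on GRCh38, per the submitters' processing notes. Per the file headers, gene counts cover whole protein-coding gene bodies of Ensembl release 97 for read pairs, without strand and without multi-mapping pairs, and SVA_D copy counts cover each annotated copy without strand and with multi-mapping pairs at each alignment. Counted without strand, sense and antisense reads at a locus are indistinguishable.

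Copies were matched to gene bodies by position and strand. Levels were scaled to 1e+06 gene counts. Copies and genes were tested with edgeR 4.0.16 under R 4.3.3, by its quasi-likelihood test (filterByExpr minimum count of 10, TMM on the gene table for both, Benjamini-Hochberg threshold of 0.05), tested on simulated data. The SE given with edgeR is an approximation, the absolute log2 fold change divided by the square root of the test's F statistic. Sums and ratios of sums were compared by two-sided exact permutation tests over libraries. Alternatives used DESeq2 1.42.0, limma 3.58.1 and other scalings, filters and library sets. Intervals are exact at 95%. Those of count ratios cover, like the floor of 3 counts, counting error only, since no molecular identifiers were used.

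Symbols were found in a symbol table for 19887 of 19986 genes. Exons and the printed sequences come from GENCODE release 29 annotation and transcripts, so only exon-overlapping copies can have a sequence, the called copy has none here, and some other sequences are not reported here. Named copies are those called, the 8 with the most counts, the 5 largest rises and 5 largest falls in CPM and the 3 smallest p-values on each side. Named host genes are the hosts of these, the 6 smallest p-values on each side and genes with 3 copies. The members, lists and rules were chosen with earlier results of these data known.

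Replicate 3 of both groups (batch B) has other alignment names in the file headers than replicates 1 and 2 (batch A). Deviations from the group means correlated across genes by 0.51, 0.60 and 0.84 between libraries of the same number. Replicates 1 and 2 correlated as well across numbers (0.57 and 0.60). These values separate the batches but do not show that equal numbers mark pairs. Comparisons by replicate number therefore assume a pairing and are given only beside the main tests.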

Additional observations from a re-analysis of the deposited data

How the results depend on the processing

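The sum of host-orientation copies had no stable sign. Its log2 ratio was 0.0062 as reported, -0.038 with TMM-scaled totals, -0.0096 for copies wholly inside a gene and -0.030 in replicates 1 and 2 alone, and it ran from -0.080 to 0.080 with 1 library left out. The differences against opposite copies and against copies outside genes kept their direction in every alternative tried, from -0.34 to -0.21 and from -0.56 to -0.39, and from -0.33 to -0.23 and from -0.50 to -0.34 with 1 library left out. With the replicate number as a block these 2 differences were -0.28 and -0.45 (exact sign-flip p = 0.25 for each, the smallest for 3 pairs), and the sum gave 0.0020. The block, other scalings, DESeq2, limma-voom, no count filter, the batch as a covariate and the loss of any 1 library left 1 host-orientation copy called higher, 0 lower and 0 host genes. The highest tertile of hosts held 49.3% of intron-only counts when genes were ranked by counts per gene instead of per kb.

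Of 579 alternative values for 45 named copies and host genes, 56 had another sign than reported, none of them called. The LEPR copy, at -2.30 as reported, was at 1.63 in replicate 3 alone, -4.00 in replicates 1 and 2 alone and -3.48 without guide replicate 3, and the HYAL1 copy was at 0.83 without guide replicate 3. In replicates 1 and 2 alone the GOSR1 copy was at 0.15, and with limma-voom the MRNIP copy was at 0.044. With 1 library left out the copies ran from -0.20 to 0.094 (GOSR1), -0.083 to 0.24 (BBS5), -0.49 to 0.11 (MRNIP), -0.41 to 0.069 (PABIR3), -0.50 to 0.10 (ESCO1), -0.51 to 0.084 (AL139353.1), -0.086 to 0.92 (VWA8) and -0.040 to 0.61 (SLC38A9) and the host genes from -0.058 to 0.028 (ACOT7), -0.18 to 0.078 (VWA8), -0.18 to 0.052 (GOSR1), -0.33 to 0.71 (HYAL1), -0.27 to 0.21 (LEPR), -0.11 to 0.12 (IFT81), -0.17 to 0.15 (ESCO1), -0.087 to 0.40 (ZFYVE9), -0.022 to 0.28 (ANKRD11), -0.16 to 0.059 (C2CD3), -0.13 to 0.38 (SLC38A9), -0.12 to 0.092 (SCFD2) and -0.13 to 0.11 (AL139353.1). Host genes in replicates 1 and 2 alone were at 0.0073 (VWA8), 0.0022 (LEPR), 0.020 (IFT81), 0.072 (ESCO1), 0.042 (C2CD3) and 0.093 (SCFD2), and without TMM at 0.037 (ACOT7), 0.040 (IFT81), 0.012 (C2CD3), 0.0036 (SCFD2) and 0.026 (AL139353.1). The cause of these changes was not tested. Only 19 copies had enough counts for a test, so depth sets what can be said of the other 166.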
